A study of Homo sapiens with 3 samples.

Results

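The genes described here put brakes on translation, or carry the mTORC1 signal that releases them. They are EIF4EBP1 and EIF4EBP2 (the eIF4E-binding proteins), PDCD4, LARP1, and the S6 kinase genes RPS6KB1 and RPS6KB2. Their members are all probe sets whose platform symbol is exactly one of these 6 genes, which gave 15 of 54675 probe sets, or 6 of 19775 singly named genes. EIF4EBP2 had 5, LARP1 had 4, RPS6KB1 had 3, and EIF4EBP1, PDCD4 and RPS6KB2 had 1 each. The cells were khES3, an established line of human embryonic stem cells held in the undifferentiated state. They spent 5 hours in medium lacking leucine, in medium lacking lysine, or in complete medium. Leucine and lysine are amino acids that human cells must take up. Each of these 3 conditions had 1 Affymetrix array, so no difference below has a replicate check, and none has a p-value.

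Translation of most mRNAs starts when eIF4E binds the cap and recruits the scaffold eIF4G and the helicase eIF4A. Unphosphorylated 4E-BPs hold eIF4E away from eIF4G, PDCD4 holds eIF4A, and LARP1 covers the cap and first bases of TOP mRNAs, which encode ribosomal proteins and elongation factors and begin with a C followed by pyrimidines. When amino acids are plentiful, mTORC1 phosphorylates the 4E-BPs, LARP1 and the S6 kinases, and active S6 kinase marks PDCD4 for destruction and phosphorylates ribosomal protein S6. These switches act on proteins, and the arrays measured mRNA only.

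RefSeq promoter windows (GRCh38.p14, 250 bases before and 50 from the annotated start) were found for 5 of the 6 genes, EIF4EBP1 being the one with none, in 8 windows because LARP1 has 4 annotated starts. The stretches around the starts are shown because a TOP mRNA is defined by its first bases. Each has 15 bases before the start in lower case and 15 from the start on in capitals, 5′ to 3′, LARP1 is shown at the last of its starts, and 4 classic TOP mRNAs follow for comparison: EEF1A1 and EEF2 (elongation factors), RPS6 (the S6 kinase substrate) and TPT1.
EIF4EBP2, chr10:70404130-70404159, + strand: ctcccgccttcgcccGCTTCCGGTCGTCGT
PDCD4, chr10:110871913-110871942, + strand: agagcgagaagggccAGAGACTCTCCGAGG
LARP1, chr5:154757139-154757168, + strand: tccccccttcccagcATTCCTCTGCAGCCG
RPS6KB1, chr17:59893106-59893135, + strand: ggcctaggcgcagacGCACTGAGCCTAAGC
RPS6KB2, chr11:67428479-67428508, + strand: aggtccgggactgtcAGTCAGTGCGCGGCC
EEF1A1, chr6:73521018-73521047, - strand: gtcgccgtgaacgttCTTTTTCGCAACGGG
EEF2, chr19:3985449-3985478, - strand: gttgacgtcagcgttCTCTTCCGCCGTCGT
RPS6, chr9:19380222-19380251, - strand: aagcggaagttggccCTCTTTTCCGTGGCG
TPT1, chr13:45341169-45341198, - strand: agcggctgagtcggcCTTTTCCGCCCGCTC
A C at the annotated start followed by 4 pyrimidines was found in 0 of the 8 windows of the brake genes. It was found in 14 of 17 windows (82.4%) of a list of TOP mRNAs other than ribosomal proteins, and in 4.07% of all 35116 windows. Annotated starts can be off by some bases, so no match says only that these letters are not at this position.

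A second motif was searched because ATF4, the transcription factor made when amino acids run short, binds it together with C/EBP factors. Its letters are TGATGNAAN, read on both strands over the whole window. It was in 10 of 41 windows (24.4%) of a list of ATF4 target genes, in 3.61% of all windows, and in 0 of the 8 windows of the brake genes. The sites in ASNS, CEBPG and CHAC1 are shown in capitals as examples of what the search finds.
ASNS, chr7:97872458-97872486, - strand: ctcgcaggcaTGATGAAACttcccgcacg
CEBPG, chr19:33374061-33374089, + strand: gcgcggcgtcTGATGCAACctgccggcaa
CHAC1, chr15:40953251-40953279, + strand: ctcccctgccGTTGCATCActcctgccag
The shorter half-site TGACG, bound by the wider ATF and CREB family and part of the full site TGACGTCA, was in 2 of the 8 windows and in 24.6% of all windows. Both windows are shown up to the start with the half-site in capitals, where it reads as its reverse complement.
EIF4EBP2, chr10:70403895-70404144, + strand: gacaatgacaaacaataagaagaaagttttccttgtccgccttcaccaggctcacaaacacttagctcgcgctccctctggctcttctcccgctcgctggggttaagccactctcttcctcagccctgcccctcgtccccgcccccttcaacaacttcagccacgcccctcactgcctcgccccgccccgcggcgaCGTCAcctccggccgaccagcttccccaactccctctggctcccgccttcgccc
RPS6KB2, chr11:67428244-67428493, + strand: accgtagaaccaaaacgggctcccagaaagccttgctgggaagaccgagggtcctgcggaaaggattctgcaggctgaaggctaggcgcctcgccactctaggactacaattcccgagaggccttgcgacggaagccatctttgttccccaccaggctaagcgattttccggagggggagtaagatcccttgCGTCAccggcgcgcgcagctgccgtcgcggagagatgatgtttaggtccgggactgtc
These matches describe letters and not binding.

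The values are MAS5 signals, a brightness per probe set on a linear scale, which the authors had scaled to the same trimmed mean on each array. Signals below the 40th percentile of an array (56.7 leucine-deprived, 62.4 lysine-deprived and 54.6 complete) were set to that floor, and each difference is one of log2 signal, so that 1 means 2-fold. Of the 15 probe sets 12 were above the floor on every array. As an error, the scatter of a difference among probe sets that read one gene was taken over 5981 genes. This SD was 0.49 without leucine against complete medium, 0.57 without lysine against complete medium, and 0.58 between the deprivations, and it does not hold the spread from culture to culture. Levels are not compared between probe sets. The ratio of the 3′ to the 5′ end of ACTB was 7.55 on the leucine-deprived, 11.2 on the lysine-deprived and 5.44 on the complete-medium array, and its part in the differences was not tested. Of 12 markers of undifferentiated stem cells 11 had a probe set naming 1 gene, and these 11 were above the floor on each array, with summed signals of 246523 (leucine-deprived), 241276 (lysine-deprived) and 230026 (complete). Of 12 fibroblast and feeder markers 9, 10 and 11 were above the floor, with summed signals of 28366, 32301 and 30830 in the same order, and none was at the floor on all arrays. COL1A1 (13187, 18609 and 11552) and THY1 (8348, 7503 and 12735) were large parts of these sums and differed in opposite directions. The sums therefore do not show a shared change of the markers. Whether these signals came from feeder cells or from the stem cells themselves was not tested. Fewer cells of a type and less RNA per cell cannot be told apart in such samples.

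**Figure D1:**
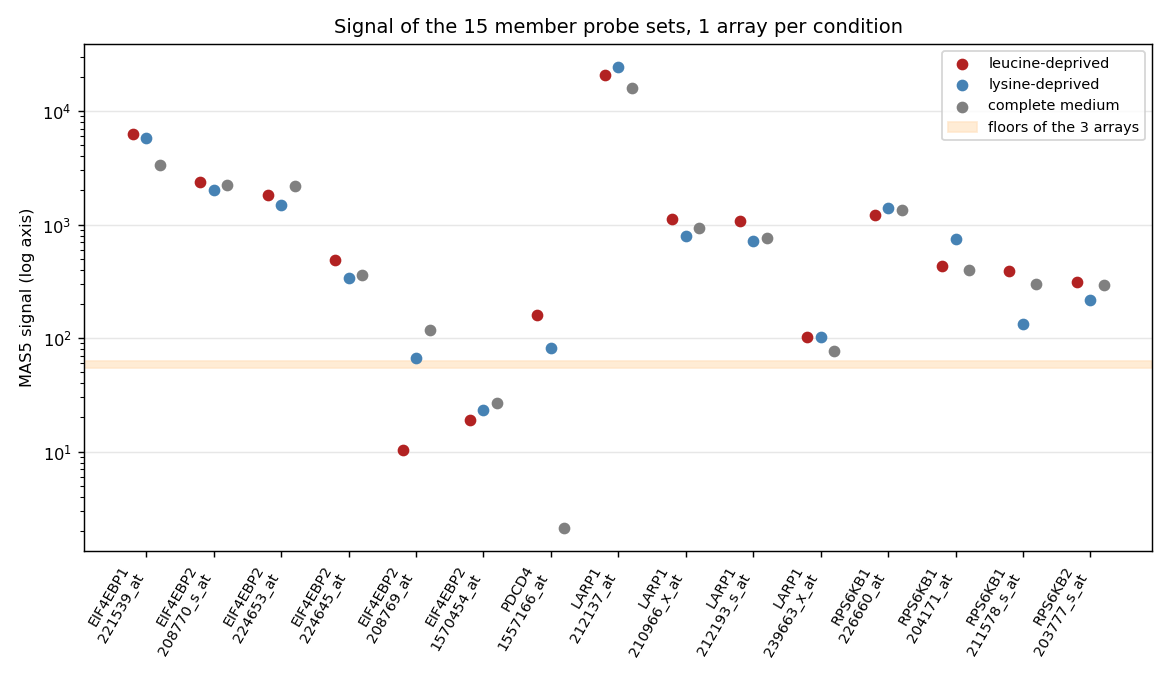
MAS5 signal (log axis) of each of the 15 probe sets on the leucine-deprived (red), lysine-deprived (blue) and complete-medium (grey) arrays, 1 point per array, with the band of the 3 floors. EIF4EBP1 lies higher on both deprived arrays than in complete medium, the probe set naming PDCD4 alone is below the floor in complete medium, and the dim EIF4EBP2 probe sets reach the floor.

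EIF4EBP1, which encodes 4E-BP1, the best studied cap-binding brake, stood furthest above complete medium among the members above the floor on both arrays, after either deprivation, taking 1 probe set per gene. Its signal was 6312 without leucine, 5840 without lysine and 3331 in complete medium (probe set 221539_at). Both deprived arrays were well above the complete-medium array and close to each other. The difference was 0.92 after leucine removal (1.89-fold) and 0.81 after lysine removal (1.75-fold), each larger than the SD between probe sets of a gene, and 0.11 between the deprivations, which is smaller than that SD. With each array centred on its median the lysine difference was 0.56, no longer above its SD of 0.57. EIF4EBP1 rests on 1 probe set, so this SD could not be checked on the gene itself.

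Set beside other genes, the EIF4EBP1 difference was above that of 96.8% of genes measured on both arrays after leucine removal and of 92.7% after lysine removal. Among brighter genes, those at or above the median level, it was above 99% and 97.2%. It fell short of 2-fold in both. EIF4EBP1 is known as an ATF4 target in mouse pancreatic beta cells, and it was not placed in the ATF4 list used here. All 31 genes of that list lay above 0 in both deprivations, with a median of 1.29 after leucine removal and 1.36 after lysine removal, against a median of 0.01 and 0.00 over all genes. EIF4EBP1 lay in the lower part of the list's range, with 24 of its 31 genes higher after leucine removal and 26 after lysine removal. ASNS, which makes asparagine, was 1.29 and 1.36 higher, DDIT4, an inhibitor of mTORC1, 2.91 and 2.93 higher, and SESN2, a leucine sensor that restrains mTORC1, 1.49 and 1.22 higher. ATF4 itself differed by 0.62 and 0.80.

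The genes whose pattern over the 3 arrays was most like that of EIF4EBP1 were taken by the distance between log2 values, each gene centred on its own mean, among 11914 genes above the floor on all arrays. They were CUTALP, PMAIP1, SOD2, NCDN and APTR, at distances from 0.017 to 0.032. PMAIP1, which encodes the pro-death BH3-only protein NOXA, differed by 0.92 after leucine and 0.78 after lysine removal. SOD2, the mitochondrial superoxide dismutase gene, differed by 0.95 and 0.84. With 3 arrays such likeness is a description.

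EIF4EBP2, which encodes the 4E-BP most abundant in brain, showed no such difference on its brightest probe set. On its chosen probe set (208770_s_at, the one with the highest mean) the signal was 2376 without leucine, 2037 without lysine and 2248 in complete medium. The 3 arrays lay close together, and the differences of 0.08 and -0.14 were below the SD between probe sets. A second bright probe set (224653_at) gave 1836, 1481 and 2200 in the same order, or -0.26 and -0.57. On this one both deprived arrays were lower than the complete-medium array, the lysine-deprived one by about the size of that SD.

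The other EIF4EBP2 probe sets were dimmer. 224645_at gave 490, 336 and 363 (0.43 and -0.11). 208769_at was at the floor without leucine (10.3), dim without lysine (66.2) and above the floor in complete medium (117.9), which gives -0.83 for lysine and a bound of -1.06 for leucine removal. 1570454_at was at the floor on all arrays (19.0, 23.2 and 26.8). Over the probe sets above the floor on both arrays, 4 of 4 were lower after lysine removal (mean -0.41 ± 0.35, SD over probe sets) and 2 of 3 were higher after leucine removal (mean 0.08 ± 0.35, SD over probe sets). These are unlike sets, since 208769_at enters the lysine count only and is lower, as a bound, without leucine too. That probe set did not pass the level filter, and the lysine mean over the kept probe sets was -0.28. Between the deprivations 3 of 3 were higher without leucine than without lysine, by 0.22 to 0.55. Each of these 3 was within the SD between probe sets of a gene. The third 4E-BP gene, EIF4EBP3, is no member and is read only by 1 probe set that also names ANKHD1 and their readthrough transcript, so no value is given for it.

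**Figure D2:**
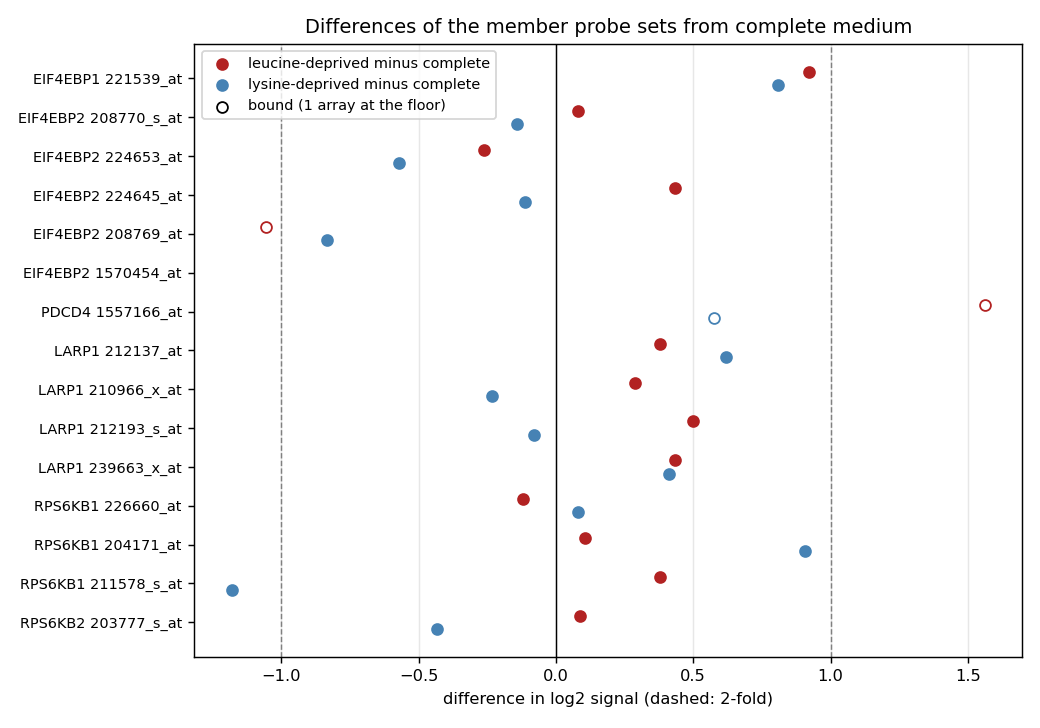
Difference in log2 signal from complete medium for each member probe set, leucine-deprived in red and lysine-deprived in blue; open points are bounds with 1 array at the floor, dashed lines mark 2-fold, and 1570454_at, at the floor on all arrays, has no point. EIF4EBP1 sits at 0.92 and 0.81, LARP1 is above 0 on all probe sets without leucine but not without lysine, and the RPS6KB1 probe sets spread to both sides without lysine.

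PDCD4, which binds eIF4A and keeps it from unwinding mRNA, was named alone by 1 dim probe set (1557166_at). Its signal was 161.2 without leucine, 81.5 without lysine and 2.14 in complete medium. It was above the floor on both deprived arrays and below it in complete medium. This probe set therefore gives only bounds, at least 2.95-fold higher after leucine removal and at least 1.49-fold higher after lysine removal. These bounds are set by the floor, and a floor at the 60th percentile gave 1.21-fold and 1.11-fold. The probe set passed the level filter through the deprived arrays. Between the deprivations it was 0.98 higher without leucine (1.98-fold).

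A further 4 probe sets name PDCD4 together with MIR4680, a microRNA gene, so they fall outside the rule. Which gene they read was not tested. All 4 were above the floor on every array, complete medium included, so the dim probe set alone does not show PDCD4 mRNA to be absent there. All 4 were higher after leucine removal, by 0.26 to 0.53 (mean 0.36 ± 0.13, SD over probe sets). The brightest of them (212593_s_at) had a signal of 783 without leucine, 1084 without lysine and 541 in complete medium, or 0.53 and 1.0. Of the 4, 3 were higher after lysine removal, and the range was -0.51 to 1.0 (mean 0.45 ± 0.70, SD over probe sets). 202731_at was lower there, with 148 without lysine against 211 in complete medium. The shared probe sets were thus higher together without leucine and divided without lysine, and their differences of up to 0.53 after leucine removal are below the bound of 1.56 from the dim probe set at the floor used here. On 3 of the 4 the leucine-deprived signal was below the lysine-deprived one, the opposite order to the dim probe set. PDCD4-AS1, the antisense gene next to PDCD4, was read at 91.1, 106.8 and 32.4 in the same array order, above the floor only on the deprived arrays, or at least 1.67-fold and 1.96-fold higher. These bounds are also set by the floor, and the dim PDCD4-AS1 probe set did not pass the level filter.

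**Figure D3:**
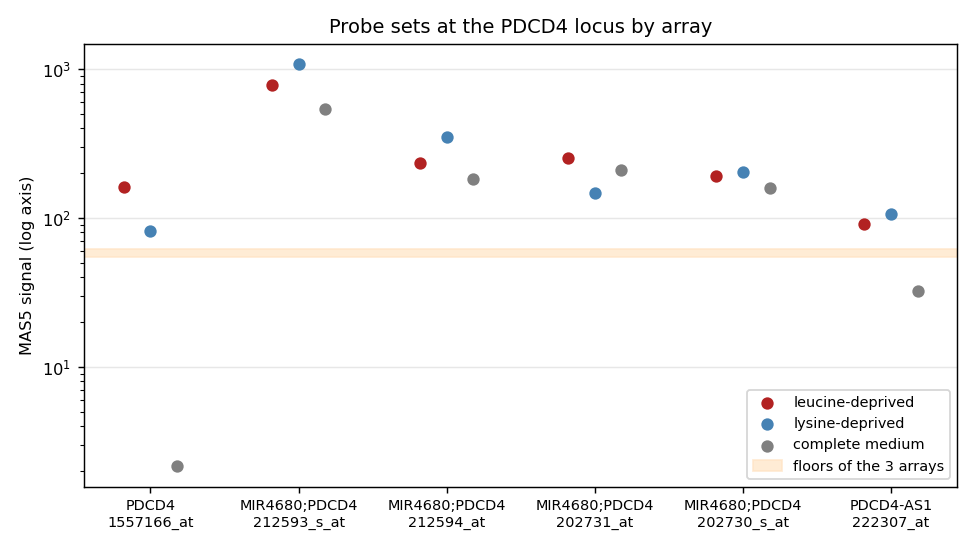
MAS5 signal (log axis) of the probe set naming PDCD4 alone, the 4 naming PDCD4 and MIR4680, and the one naming PDCD4-AS1, on the leucine-deprived (red), lysine-deprived (blue) and complete-medium (grey) arrays. All 4 shared probe sets are higher without leucine than in complete medium, and 202731_at alone among them is lower without lysine.

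LARP1, the cap-binding protein that holds TOP mRNAs when mTORC1 is off, was modestly higher without leucine on each of its probe sets. The brightest (212137_at) had a signal of 20676 without leucine, 24432 without lysine and 15888 in complete medium. Both deprived arrays were higher, by 0.38 and 0.62 (1.30-fold and 1.54-fold). 210966_x_at gave 1130, 787 and 925 in the same order, and 212193_s_at gave 1071, 717 and 757. On these 2 the leucine-deprived array was the highest (0.29 and 0.50) and the lysine-deprived array the lowest (-0.23 and -0.08). The dim 239663_x_at gave 103.1, 101.6 and 76.4 (0.43 and 0.41).

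Over the 4 LARP1 probe sets the difference was 0.40 ± 0.09 after leucine removal (SD over probe sets, 4 of 4 above 0) and 0.18 ± 0.40 after lysine removal (2 of 4 above 0). The probe sets thus had one sign without leucine and both signs without lysine. Taken singly, the LARP1 probe sets ran from 0.29 to 0.50 without leucine, against an SD of 0.49 between probe sets of a gene. That SD is for 1 probe set and is not the error of the mean of 0.40. All 4 probe sets were read on the same arrays. Probe sets marked _x_at or _s_at can read more than 1 transcript, and 212137_at carries no such mark.

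RPS6KB1, which encodes S6K1, showed no shared direction. On the chosen probe set (226660_at) the signal was 1225 without leucine, 1407 without lysine and 1331 in complete medium. The 3 values lay within a narrow range (-0.12 and 0.08). 204171_at gave 428, 747 and 398, with only the lysine-deprived array high (0.10 and 0.91). 211578_s_at gave 391, 133 and 300, with the lysine-deprived array low (0.38 and -1.18). After lysine removal the 3 probe sets therefore ran from -1.18 to 0.91 (mean -0.06 ± 1.05, SD over probe sets), and after leucine removal from -0.12 to 0.38 (mean 0.12 ± 0.25, SD over probe sets). 211578_s_at was the only member probe set above the floor on both arrays that was past 2-fold from complete medium, and it was not the one chosen for the gene.

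RPS6KB2, which encodes the second S6 kinase, S6K2, was read by 1 probe set (203777_s_at), with a signal of 313 without leucine, 218 without lysine and 294 in complete medium. The leucine-deprived array was close to complete medium (0.09) and the lysine-deprived array lower (-0.43), within the SD between probe sets of a gene. Between the deprivations the signal was 0.52 higher without leucine.

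Taking 1 probe set per gene, 1 of the 5 members measured on both arrays was at least 1.5-fold higher after leucine removal (EIF4EBP1), where 9.34% of 12297 genes were, and 0 were 1.5-fold lower, where 5.97% were. After lysine removal 2 of 5 were at least 1.5-fold higher (EIF4EBP1 and LARP1), where 13.2% of 12227 genes were, and 0 were 1.5-fold lower (8.69% of genes). With each array centred on its median, neither remained 1.5-fold higher without lysine (EIF4EBP1 0.56 and LARP1 0.37), where 6.87% of genes were. There 1 member, RPS6KB2, was 1.5-fold lower (-0.68), where 20.1% of genes were. This centring put the median of all genes at -0.24. With quantile and cyclic loess normalization EIF4EBP1 (0.84 and 0.85) and LARP1 (0.64 and 0.63) stayed past 1.5-fold. As the mean of its probe sets LARP1 was at 0.18, short of 1.5-fold. At 2-fold the count was 0 of 5 in either direction for both deprivations. The share of genes at 2-fold was 2.66% higher and 1.43% lower without leucine, and 4.22% higher and 1.95% lower without lysine. Between the deprivations 0 of the 5 members other than PDCD4 were at least 1.5-fold higher (7.75% of genes) or lower (9.26% of genes), and 0 were past 2-fold (1.93% of genes higher and 2.8% lower). PDCD4, at 0.98, is left out of this count, since it passed the level filter through the deprived arrays only and differed by 0.13 under a 60th-percentile floor.

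The median over the 6 genes was 0.23 after leucine removal and 0.33 after lysine removal, with PDCD4 at its bound. Without PDCD4 it was 0.09 and 0.08, against 0.01 and 0.00 over all 12961 genes. Counted over member probe sets above the floor on both arrays, 10 of 12 were above 0 without leucine (median 0.33), where 51.0% of all such probe sets were. Without lysine 5 of 13 were above 0 (median -0.11), where 51.6% were. With each array centred on its median these counts were 7 of 12 (37.3% of all) and 4 of 13 (31.8% of all), so a count above 0 depends on the scaling. Counted above the median of all such probe sets in place of 0, they were 10 of 12 and 5 of 13. These counts were the same with the deposited scaling, median centring, quantile and cyclic loess normalization. Probe sets of 1 gene share their target, and both comparisons share the complete-medium array.

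Of the genes around these brakes, the eIF4F and cap-binding partners had medians near that of all genes. Of 12 measured, 9 were below 0 after leucine removal and 8 after lysine removal, where 48.3% and 49.5% of all genes were, with medians of -0.09 and -0.09. Averaging all kept probe sets per gene, the medians were -0.03 and -0.01. At 1.5-fold the counts were 0 higher and 0 lower without leucine, where 9.34% and 5.97% of all genes were. Without lysine they were 0 higher and 1 lower, where 13.2% and 8.69% were. The lower one was ANGEL1 (-1.24), an eIF4E-binding protein, whose other kept probe set gave -0.28. EIF4E, the cap-binding protein that the 4E-BPs hold, had a signal of 2734 without leucine, 2736 without lysine and 3833 in complete medium. Both deprived arrays were lower by the same amount (-0.49 and -0.49), whereas its 3 probe sets ran from -0.49 to 0.15 and from -0.49 to 0.38. EIF4E2, a second cap-binding protein, differed by -0.40 and -0.46, with all 4 probe sets below 0 in both.

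Activators and substrates of the S6 kinases had 9 of 12 above 0 after leucine removal (median 0.24) and 10 of 12 after lysine removal (median 0.11, or -0.13 with each array centred on its median). Of all genes 48.3% and 49.5% were below 0, 9.34% and 13.2% were 1.5-fold higher, and 5.97% and 8.69% lower, in the same order. The counts past 1.5-fold were 0 and 0 without leucine, and 2 higher and 1 lower without lysine. These were RICTOR (0.79, its 3 probe sets from -0.11), a subunit of mTORC2, and MDM2 (0.66), the p53 ubiquitin ligase, named after its value was seen, and on the lower side NCBP1 (-0.61), a nuclear cap-binding subunit. RPS6, the S6 kinase substrate in the ribosome, differed by 0.23 and 0.06, PDPK1, the kinase that activates S6 kinases, by 0.38 and 0.34, and EEF2K, which S6 kinase inhibits, by 0.31 and 0.05. The other EEF2K probe set gave -0.22 and -0.72. The p90 and other kinases of the RPS6K family, named alike but not members here, had 6 of 8 above 0 without leucine (median 0.20) and 4 of 8 without lysine (median -0.01). At 1.5-fold 0 were higher and 1 lower without leucine (RPS6KA4 at -0.82, named after its value was seen). Without lysine 3 were higher (RPS6KA2, RPS6KA6 and RPS6KL1) and 1 was lower (RPS6KA5 at -1.03, with its other probe set at 0.37). RPS6KA4 was at the floor without lysine, where it has a bound of -1.5. There it enters no count past 1.5-fold, but it does enter the count around 0 and the median. RPS6KA2 differed by 0.53 and 0.96, and both its probe sets were above 0 in each.

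The mTORC1 core and its TSC and RHEB regulators had 4 of 10 above 0 without leucine (median -0.22) and 5 of 10 without lysine (median -0.01), with 0 higher and 1 lower past 1.5-fold without leucine and 1 higher and 0 lower without lysine. The lower one was AKT1S1 (-0.61), which encodes the mTORC1 inhibitor PRAS40, and the higher one RHEBL1 (0.64), a relative of RHEB. Without leucine 48.3% of all genes were below 0, 9.34% were 1.5-fold higher and 5.97% lower. Without lysine these shares were 49.5%, 13.2% and 8.69%. LARP1 relatives and other TOP mRNA binders had medians of 0.01 and -0.05 over 10 genes, and 0 were past 1.5-fold in either deprivation. LARP1B, the closest relative of LARP1, differed by 0.22 and 0.24 on its chosen probe set, while its 4 probe sets ran from -0.53 to 0.71 without leucine and from -0.47 to 0.24 without lysine. Genes for the turnover and dephosphorylation of the brakes had medians of 0.12 and -0.06 over 12 genes, with 1 higher and 0 lower past 1.5-fold without leucine and 0 higher and 1 lower without lysine. PHLPP1, a phosphatase that acts on AKT and S6K1, had a signal of 812 without leucine, 441 without lysine and 448 in complete medium, so that only the leucine-deprived array stood high (0.86 and -0.02). KLHL25, the ubiquitin ligase adaptor for unphosphorylated 4E-BP1, had 161.3, 95.7 and 199.3, low on the lysine-deprived array (-0.31 and -1.06).

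The TOP mRNAs themselves, leaving out ribosomal proteins, had 11 of 17 above 0 without leucine (median 0.10) and 9 of 17 without lysine (median 0.00), and 0 were past 1.5-fold in either. Of all genes 48.3% and 49.5% were below 0, 9.34% and 13.2% were 1.5-fold higher, and 5.97% and 8.69% lower, in the same order. Centring each array on its median put the TOP list's medians at -0.03 and -0.24, where the median of all genes was -0.12 and -0.24. EEF1A1 differed by 0.42 and -0.02 and PABPC1, the poly-A binding protein, by 0.31 and -0.09. Several of them have retrocopies of nearly the same sequence, which a probe set may read as well. Beside these lists the members' spread from -0.12 to 0.92 without leucine (PDCD4 left aside as a bound) lay below the top of the ATF4 list, whose highest gene, TRIB3, differed by 3.80 without leucine and 3.75 without lysine.

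**Figure D4:**
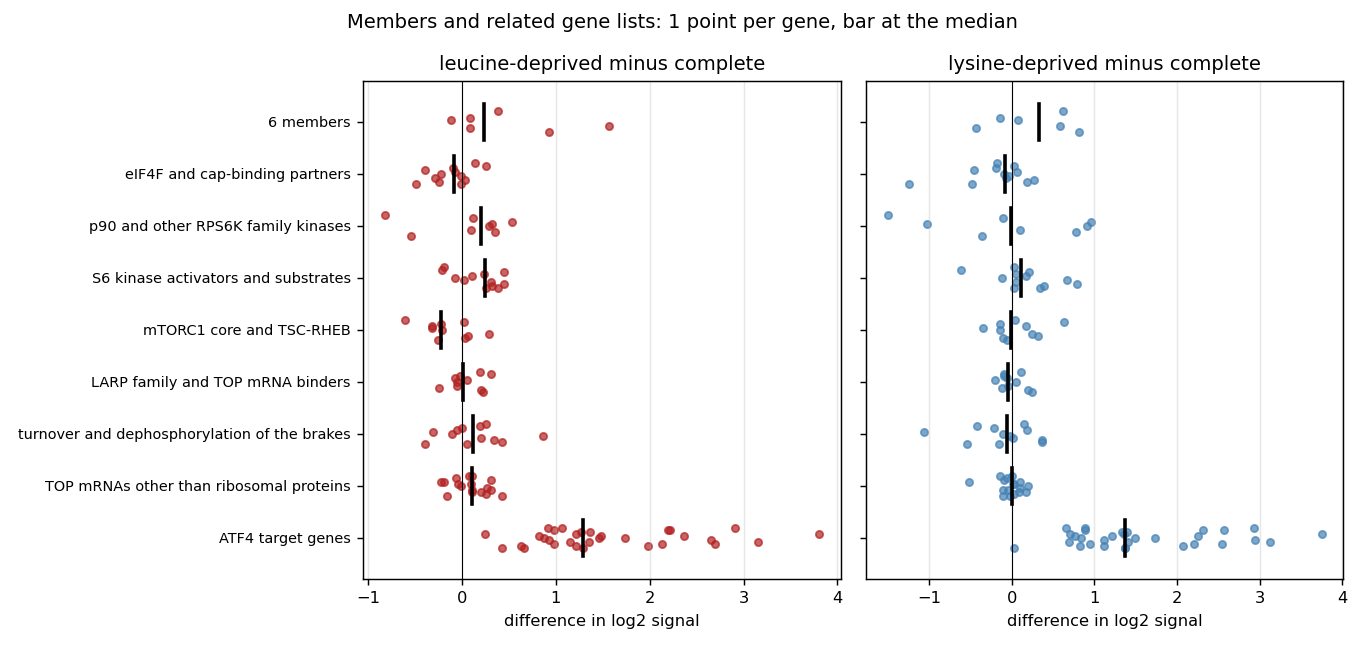
Difference in log2 signal from complete medium, leucine-deprived on the left and lysine-deprived on the right, 1 point per gene and a bar at each list's median; PDCD4 is drawn at its bound among the 6 members. The medians of the lists around the brakes lie between -0.22 and 0.24, and those of the ATF4 list at 1.29 and 1.36.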

How the data were processed

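RNA from khES3 cells was measured on 1 array in each of 3 conditions. The authors made the deposited intensity values, 1 per probe set on a linear scale, with MAS5, per the submitters' processing notes, of which no version or setting is known here. All arrays had the same 2% trimmed mean (500.1), so a shift of total mRNA is not seen. Of 54675 probe sets 62 are controls, 41091 name 1 gene, 1801 several and 11721 none here. All 6 members' Entrez identifiers were in the RefSeq table, and 0 symbols differed. Signals under an array's 40th percentile were raised to it before log2 was taken. Probe sets with a mean at or above the median were kept (23055), and a gene took its kept probe set with the highest mean (12961 genes). With 1 array per group nothing was tested between groups. No per-sample columns were left unused. Detection calls were not used here. The number of arrays limits the precision.

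The members and lists were chosen with earlier results of these data known, as was the ATF4 list. Named genes were all members, the 4 or fewer genes of each list that differed most on average, fixed anchors (EIF4A1, one of them, had no kept probe set), and the 5 genes nearest to the member with the largest difference; of these, those a result turns on are named. Alternatives were other scalings, floors, level filters, probe set choices and thresholds. The calculation was tested on simulated arrays whose seeded differences were larger than those measured for the members. That test therefore does not bear on differences of the members' size. Python 3.11.15, numpy 2.4.6, pandas 2.3.3, matplotlib 3.10.9, R 4.3.3 and limma 3.58.1 were used.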

Additional observations from a re-analysis of the deposited data

Results flagged for a closer look

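The leucine and lysine differences from complete medium had opposite signs on 7 member probe sets above the floor on all arrays. With 1 array per condition, and with complete medium shared, the difference between them was not tested. For RPS6KB1 211578_s_at (0.38 without leucine and -1.18 without lysine) leucine minus lysine was 1.56, and for RPS6KB1 226660_at it was -0.20. For LARP1 it was 0.58 on 212193_s_at and 0.52 on 210966_x_at, and for EIF4EBP2 0.55 on 224645_at and 0.22 on 208770_s_at. For RPS6KB2 203777_s_at it was 0.52. Only the first exceeds the SD of 0.58 between probe sets of a gene, and LARP1 212193_s_at lies just below it.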

How the results depend on the processing

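No paired analysis was possible because each condition has 1 array. Over 400 alternative values, 392 moved by less than the SD between probe sets of a gene or, for counts, stayed at 0, and 8 did not. That SD is for 1 probe set and is wide beside a median over genes. Outside the ATF4 list the list medians lay between -0.22 and 0.24, so staying within the SD says little for them. Only the ATF4 list medians and the PDCD4 bound without leucine were past 2-fold, and none of these changed sign. Smaller values did, 8 of them for members and 12 for list medians. EIF4EBP1 ran from 0.79 to 0.95 without leucine and from 0.56 to 0.85 without lysine. At 1.5-fold in place of 2-fold, the count of members was 1 without leucine, 2 without lysine (0 higher and 1 lower with median centring) and 1 between the deprivations, PDCD4. The shares of all genes higher by as much were 9.34%, 13.2% and 7.75%. With median centring 6.87% of genes were higher and 20.1% lower without lysine. Between the deprivations the count at 2-fold was 1 with each array centred on its median, 1 with quantile and 1 with cyclic loess normalization. Each time this was PDCD4 (1.10, 1.18 and 1.10). It is left out of the count in the Results because it passed the level filter through the deprived arrays only. With the floor at the 60th percentile PDCD4 differed by 0.27 without leucine and by 0.13 between the deprivations. Median centring moved the median of all genes to -0.12 without leucine and -0.24 without lysine, and the 60th-percentile floor, under which the level filter removes no gene, moved it to 0.14 without lysine. Having no level filter moved it to 0.19 without lysine. The median over members ran from 0.08 to 0.38 without leucine and from 0.06 to 0.58 without lysine, including the alternatives on PDCD4, which were chosen after seeing the data. The members that changed sign were EIF4EBP2 (-0.05) and RPS6KB2 (-0.04) without leucine and RPS6KB1 without lysine (-0.17) under median centring, and EIF4EBP2 without leucine (-0.26) when probe sets marked _s_at or _x_at were left out. With all kept probe sets averaged per gene they were RPS6KB1 (0.12 without leucine, -0.06 without lysine and 0.19 between the deprivations) and LARP1 between the deprivations (0.22). Of the lists, the ATF4 targets stayed between 1.12 and 1.40. The medians of the eIF4F list ran from -0.22 to -0.01 without leucine and from -0.33 to -0.01 without lysine, and those of the S6 kinase list were above 0 without leucine (0.11 to 0.28) but not without lysine (-0.13 to 0.12).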
